A study of Mus musculus with 2 samples.

Results

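Genes for the proteins of the mitochondrial ribosome were examined in the adrenal gland of adult mice. The members were the protein-coding genes whose symbol begins with Mrpl or Mrps followed by a digit, which gave 77 of the 21474 protein-coding genes and 43346 mouse genes in the tables. The rule uses symbols and no measured value, but it was set with earlier results of these data known. GENCODE M21 has 78 such genes. The missing one, Mrpl33, could not be matched by its gene identifier, and its coding transcript, listed under another identifier, had 2.42 TPM in replicate 1 and 2.86 TPM in replicate 2.

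The study had 1 group of 2 libraries, labelled biological replicates 1 and 2, from C57BL/6J animals of 8 weeks described as littermates of both sexes. No treatment or engineered allele is named, and both libraries carry the same donor label. Poly(A) RNA longer than 200 nt was sequenced with strand information as 76 nt read pairs. The labels do not say how many animals stand behind each library, and the spread between the libraries may be partly technical.

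The mitochondrial ribosome translates the few messages encoded in mitochondrial DNA, all of them for subunits of the respiratory chain and ATP synthase. Its RNAs come from the mitochondrial genome, but every protein of it is encoded in the nucleus and imported. Some of these proteins descend from the bacterial ancestor and others were added in mitochondria. In the adrenal cortex, mitochondria also house the first and last enzymes of steroid synthesis.

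Replicate 1 held 48059863 expected counts and replicate 2 held 53294872. An expected count is an estimated number of read pairs per gene. The members took 188622 and 210846 of these counts, with a median of 985 and 997 per member and a lowest value of 49. Of the 8 steroid-producing cortex markers, 8 were detected and 8 were higher in replicate 2 by adjusted p. Their summed share of TPM was 2.53% in replicate 1 and 3.38% in replicate 2. Brown adipose markers went the other way, with a summed share of 1.34% in replicate 1 and 0.589% in replicate 2 and 8 of 10 higher in replicate 1 by adjusted p. Erythroid markers were higher in replicate 2 by adjusted p for 5 of 5 (0.3804% and 0.4953% of TPM). At 2-fold 6 of 6 liver markers were called higher in replicate 2, with Ttr at 0 and 222 counts and Alb at 22 and 441. Of all genes tested, 29.6% were higher in replicate 1 and 28.6% in replicate 2 by adjusted p. At 2-fold 2.55% of them were called higher in replicate 2. Xist had 3401 counts in replicate 1 and 8376 in replicate 2. The Y-linked genes Kdm5d, Eif2s3y, Uty and Ddx3y had 221, 79, 26 and 32 counts in replicate 1 and 0 in replicate 2, although the label gives both sexes. The part of these differences in the values below was not tested, and in whole tissue fewer cells of a type and less RNA per cell cannot be told apart.

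Nearly all members were transcribed in the gland. TPM, the authors' measure of transcript share per length scaled to a fixed total, was at least 1 in both libraries for 75 of 77 members, against 54.6% of all protein-coding genes. It was at least 10 in both for 59 members and at least 100 in both for 20. The median over members was 35.1 TPM (replicate 1) and 38.8 TPM (replicate 2), and the median detected protein-coding gene at 15.8 and 16.2 TPM. Among protein-coding genes the median member lay at percentile 82.4 in replicate 1 and 83.3 in replicate 2. Together the members held 0.935% ± 0.0480 (SD, n = 2) of all TPM, and the 80 proteins of the cytosolic ribosome held 4.24% ± 0.0512 (SD, n = 2).

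The levels of these subunits of 1 particle were far apart. Mrpl52, a large-subunit protein with no bacterial counterpart, was highest with 2130 TPM in replicate 1 and 3111 TPM in replicate 2. It lies on chromosome 14 (mm10, 54426909 to 54429756, plus strand; ENSMUSG00000010406.7). The next was Mrps24, on chromosome 11 (5703983 to 5715680, minus strand), a small-subunit protein of bacterial descent with 744 and 790 TPM. Mrpl52 thus alone made up 23.9% of the members' TPM in replicate 1 and 32.4% in replicate 2. Without it, the other 76 members held 0.686% of all TPM in replicate 1 and 0.655% in replicate 2, so the higher summed share of replicate 2 rested on this gene.

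The lead of Mrpl52 depended in part on how length enters the value. Its transcripts were 412 nt long with an effective length of 216 in replicate 1 and 226 in replicate 2, the effective length being the number of positions where a fragment can start. Its count was 16012 in replicate 1, below the 19170 of Mrps24, and 26072 in replicate 2, above the 22196 of Mrps24. In TPM it exceeded Mrps24 by 2.86-fold in replicate 1 and 3.94-fold in replicate 2. Per full transcript length the same counts gave 1.90-fold and 2.69-fold. The order of the members as a whole hardly moved, with a Spearman coefficient of 0.996 between the 2 ways of counting length, a description across 77 genes of the same libraries.

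After these came Mrps34, a small-subunit protein found only in mitochondrial ribosomes, with 576 TPM in replicate 1 and 543 TPM in replicate 2. Mrpl2, a counterpart of a bacterial protein at the peptidyl transferase centre, had 462 and 343 TPM. Mrpl34 had 291 and 264 TPM, Mrpl17 270 and 246, and Mrpl14 258 and 221. These are large-subunit proteins of bacterial descent. Mrpl10, which joins the ribosome stalk with copies of Mrpl12, had 278 TPM in replicate 1 and 196 in replicate 2. Mrpl12, also reported to bind the mitochondrial RNA polymerase, had 164 and 183 TPM. Apart from Mrpl52 and Mrps24, the neighbours in this order from Mrpl34 to Mrpl10 overlapped in their ranges over the libraries.

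At the other end, only Mrpl47 and Mrpl50 were below 1 TPM. Mrpl47, on chromosome 3 (32725397 to 32737605, minus strand), had 0.60 TPM in replicate 1 and 0.58 in replicate 2, from 66 and 69 counts. Mrpl50, on chromosome 4 (49512596 to 49521093, minus strand), had 0.73 and 0.95 TPM, from 49 and 68 counts. The authors' posterior mean TPM was 0.83 and 0.70 for Mrpl47 and 0.74 and 0.95 for Mrpl50, so the order of these 2 genes is not settled and rests on few counts. Above them stood Mrps25 with 1.23 and 2.16 TPM, Mrpl1 with 1.85 and 2.63 TPM, and Mrps31 with 3.13 and 1.93 TPM. Mrpl35 had 2.61 and 2.89 TPM, Mrpl13 3.80 and 2.77 TPM, and Mrpl15 3.47 and 3.29 TPM. The ranges of Mrps25, Mrpl1 and Mrps31 overlapped. The mean level of Mrpl52 exceeded that of Mrpl47 4442-fold in TPM and 2545-fold per full length. All 8 of these lowest members were also the lowest 8 per full length.

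**Figure D1:**
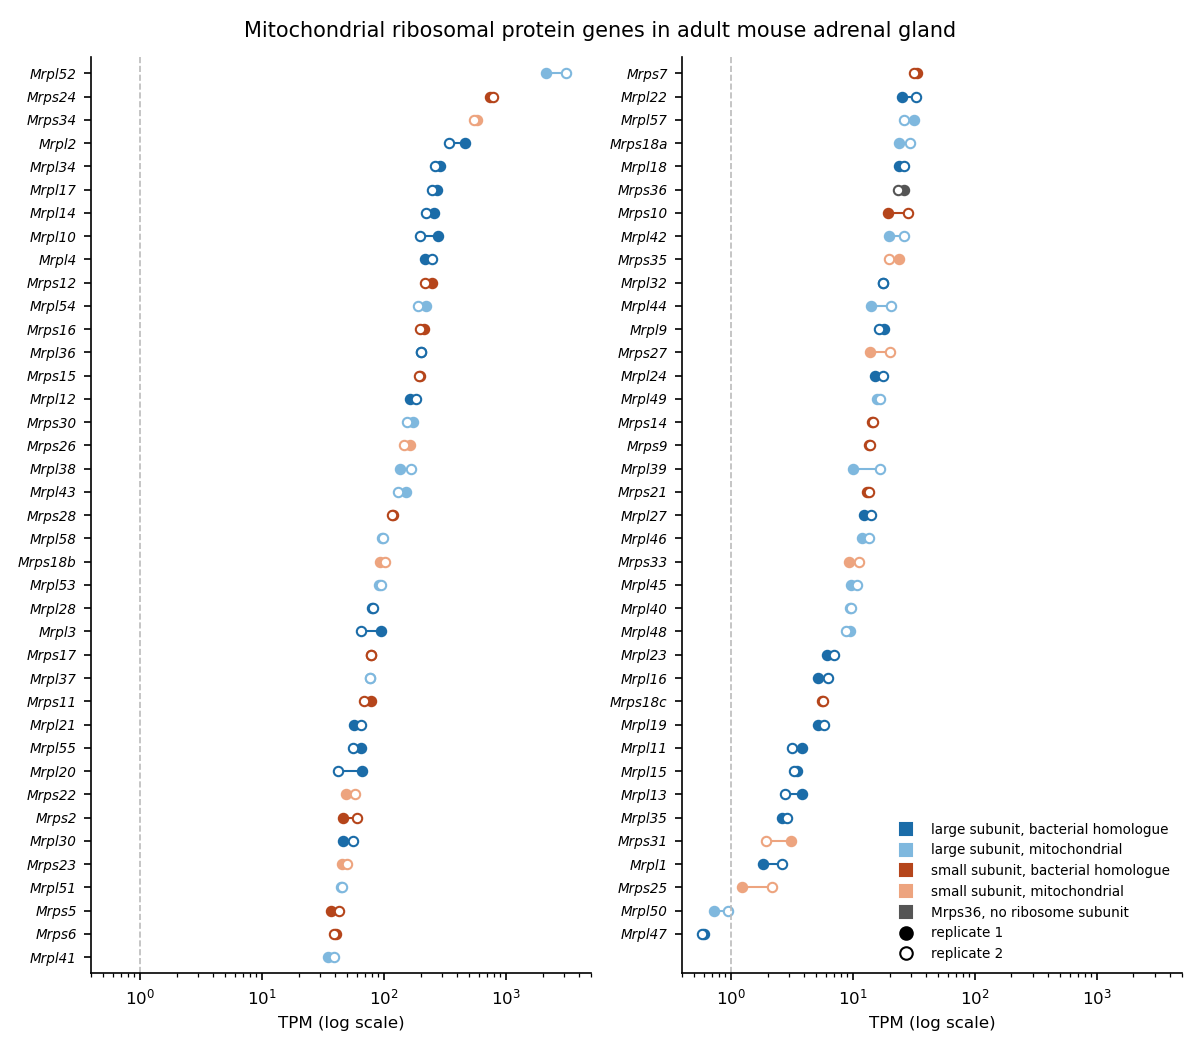
TPM of each of the 77 members on a log scale, ranked by the mean of the libraries, with replicate 1 as a filled and replicate 2 as an open point joined by a line; colours give the subunit and descent and the dashed line marks 1 TPM. Mrpl52 stands apart at the top with 2130 and 3111 TPM, and Mrpl47 and Mrpl50 lie below the line.

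The SD of log2 mean TPM was 2.36 over all members, including Mrpl47 and Mrpl50 below 1 TPM. It was 2.26 over 11718 detected protein-coding genes and 2.48 over 77 detected proteins of the cytosolic ribosome. Both of those sets leave out genes below 1 TPM in a library, which narrows their spread. Subunits and lines of descent overlapped widely. The 50 large-subunit members had a median of 28.5 TPM in replicate 1 and 31.3 in replicate 2, and the 26 small-subunit members 42.6 and 46.7 TPM. By descent the medians were 25.4 and 33.2 TPM for 29 large-subunit members with a bacterial counterpart and 31.6 and 29.4 TPM for 21 added in mitochondria. In the small subunit they were 43.2 and 51.9 TPM for 16 with a bacterial counterpart and 34.6 and 35.2 TPM for 10 added in mitochondria. Within each of these sets the highest member exceeded the lowest by at least 136-fold, far more than the sets' medians differed.

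The 3 paralogues that share a name with a bacterial small-subunit protein had separate levels. Mrps18b was highest with 92.4 TPM in replicate 1 and 101.5 in replicate 2. Mrps18a, which in the assembled ribosome belongs to the large subunit, had 23.8 and 29.4 TPM. Mrps18c, the one at the bacterial protein's place, had 5.55 and 5.71 TPM. Mrps18b exceeded Mrps18c 16.7-fold in replicate 1 and 17.8-fold in replicate 2, and none of the ranges overlapped. Mrps36, since assigned to the oxoglutarate dehydrogenase complex and not to the ribosome, had 26.3 and 23.3 TPM, below the median member.

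For some members, reads could not be assigned cleanly to the gene. Mrpl23 had 6.17 TPM in replicate 1 and 6.97 in replicate 2, while its processed pseudogene Mrpl23-ps1 on chromosome 2 was listed at 56.0 and 77.3 TPM, 9.08-fold and 11.1-fold more. Reads of the gene and this copy may be split between them, so the level of Mrpl23 is uncertain. Summed over both, the mean was 73.2 TPM. Counts departed from whole numbers by more than 0.02 in 13 members, a sign of shared reads: Mrpl2, Mrpl4, Mrpl23, Mrpl27, Mrpl53, Mrps5, Mrps6, Mrps12, Mrps18b, Mrps30, Mrps33, Mrps34 and Mrps36. The genes or copies that share these reads were not identified, and the amount shared was not measured.

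For many members most of the TPM was assigned to transcripts that GENCODE M21 does not class as protein-coding. The leading transcript, the one with the highest mean TPM, was of another class in 19 of 77 members. In 18 members protein-coding transcripts held under 50% in both libraries. The same shares were not computed over all protein-coding genes, so these counts cannot be read as particular to the members. Of the TPM of all members, protein-coding transcripts held 79.2% in replicate 1 and 82.3% in replicate 2. For Mrpl2, a processed transcript of 434 nt held 87.5% of the TPM in replicate 1 and 84.9% in replicate 2, and the coding transcripts had 57.8 and 48.0 TPM. Mrps26 had 99.2% and 99.3% in a transcript with a retained intron. In Mrpl3, a transcript of 457 nt marked for nonsense-mediated decay held 96.4% and 91.8%, and the coding transcripts had 0.77 and 1.01 TPM. Mrpl32 had a single transcript in the tables, and M21 classes it as subject to nonsense-mediated decay. By that class its 17.8 and 17.7 TPM were not counted as coding. The transcript was quantified at 768 nt and is 658 nt long in M21, so its class in the annotation used for counting is not known. Taking transcripts of coding class in M21 alone, with Mrpl32 at 0, the median over members of the mean level was 21.9 TPM in place of 37.1 TPM. On this basis 71 of 77 members still had at least 1 TPM in both libraries. These transcripts share exons with the coding ones, and the classes come from a later annotation than the one used for counting. The shares are of TPM, which divides by effective length. A leading transcript shorter than the coding ones therefore held a smaller share of the reads than of the TPM. Shares of counts are not given here.

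**Figure D2:**
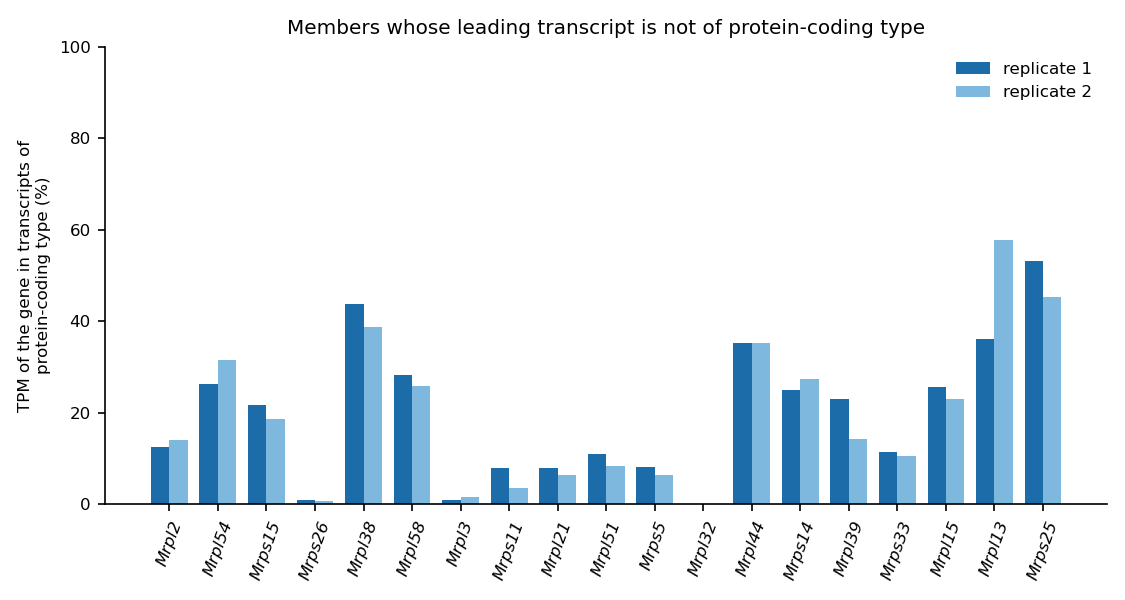
Percentage of each gene's TPM in transcripts of protein-coding class for the 19 members whose leading transcript is of another class, ordered by mean TPM, with 1 bar for each library. Mrps26 and Mrpl3 lie near 0, Mrpl32 has no bar, and Mrpl13 and Mrps25 reach values near 50%.

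Of the 58 members with more than 1 transcript, 51 had the same leading transcript in both libraries and 7 did not. In Mrpl10, a transcript of 744 nt had 141 TPM in replicate 1 and 36.2 in replicate 2, while one of 1708 nt had 136 and 160 TPM. The count of Mrpl10 was 9866 in replicate 1 and 9807 in replicate 2, with a log2 ratio of 0.16 after scaling for depth, and its mean transcript length was 1217.2 and 1530.5 nt (replicates 1 and 2). Mrps18c likewise changed from a transcript of 460 nt (4.11 and 2.20 TPM) to one of 820 nt (1.44 and 3.51 TPM). The others were Mrpl13, Mrpl55, Mrps10, Mrps21 and Mrps25. Their leading transcripts held under 60% in both libraries.

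Members whose leading transcript had more G and C bases had higher levels. Across the 77 members Pearson's r between this share and log2 mean TPM was 0.64 and Spearman's rho 0.65, against 0.38 and 0.39 across 11624 detected protein-coding genes and 0.54 and 0.57 across 76 detected proteins of the cytosolic ribosome. The share was read from the M21 sequence, whose length differed from that of the quantified transcript in 24 members. Over the other 53 members r was 0.73 and rho 0.73, and over 8551 detected protein-coding genes of equal length 0.37 and 0.39. Split by this share, the 25 lowest members had a median of 14.5 TPM, the middle 26 had 27.3 TPM and the highest 26 had 153 TPM. Detected protein-coding genes in the same ranges of G and C had medians of 7.41, 16.9 and 32.7 TPM. Of the 20 members with a mean above 100 TPM, 15 were in the set richest in G and C, and of the 15 below 10 TPM, 11 were in the poorest. Among the members of equal length, Mrpl23 was an exception with a share of 59.0% and a mean of 6.57 TPM, a level made uncertain by its pseudogene. The points share 2 libraries, amplification and depth, and longer transcripts had less G and C (r = -0.47), so this is a description. Between the same measure and the log2 ratio of replicate 1 over replicate 2, r was 0.18 across the 77 members. It was 0.21 across detected protein-coding genes. Over the 53 members of equal length r was 0.50, and over detected protein-coding genes of equal length 0.21.

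**Figure D3:**
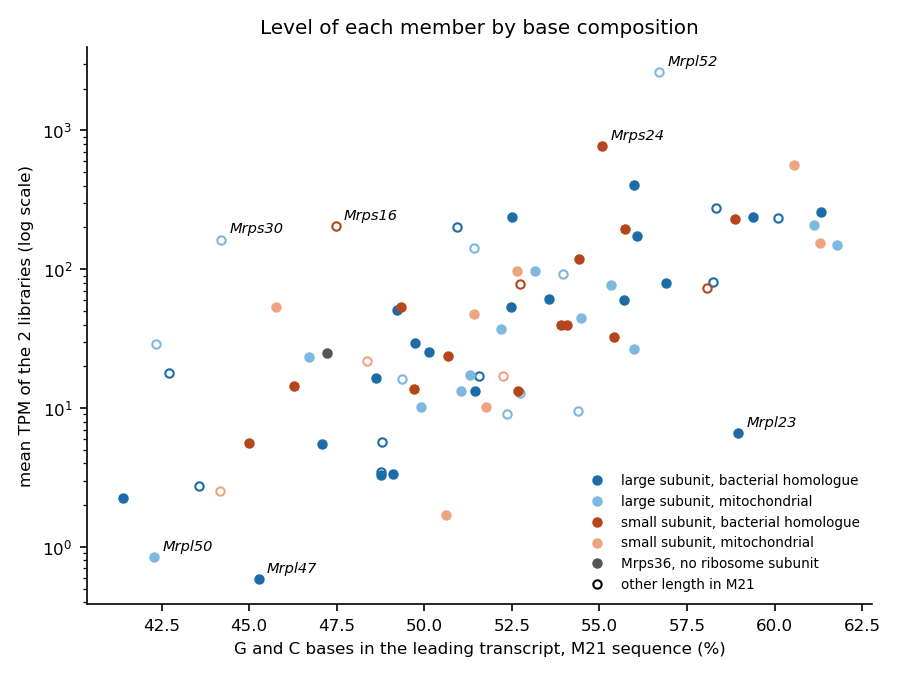
Mean TPM of the libraries on a log scale against the percentage of G and C bases in the M21 sequence of the leading transcript, 1 point per member, coloured by subunit and descent; open points are the 24 members whose M21 sequence differs in length from the quantified transcript. Levels are higher to the right, and Mrpl23 lies low at 59.0%.

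Promoters of the members were read in RefSeq windows of 300 bases (GRCm38.p6), 250 before and 50 after the gene start, which were found for 68 of 77 members. Stretches before the start and outside annotated exons are shown for 3 of the 5 highest members, Mrpl52, Mrps24 and Mrpl34, and for 3 members with the ETS motif, Mrpl43, Mrps22 and Mrps27, at lower levels. Capitals mark matches to the ETS core CCGGAAG, bound by GABP among other factors, and to the SP/KLF motif GGGCGG, on either strand.
Mrpl52: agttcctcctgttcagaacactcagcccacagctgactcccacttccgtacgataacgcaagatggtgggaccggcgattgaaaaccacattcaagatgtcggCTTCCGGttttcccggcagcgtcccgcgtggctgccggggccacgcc
Mrps24: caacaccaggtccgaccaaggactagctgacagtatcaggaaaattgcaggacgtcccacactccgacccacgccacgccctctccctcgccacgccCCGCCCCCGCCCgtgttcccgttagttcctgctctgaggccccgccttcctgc
Mrpl34: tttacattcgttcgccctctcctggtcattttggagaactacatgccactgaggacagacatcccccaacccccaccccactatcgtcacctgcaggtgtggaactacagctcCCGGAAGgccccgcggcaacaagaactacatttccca
Mrpl43: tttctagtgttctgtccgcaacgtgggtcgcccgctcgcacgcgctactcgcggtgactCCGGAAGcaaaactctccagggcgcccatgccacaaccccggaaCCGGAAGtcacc
Mrps22: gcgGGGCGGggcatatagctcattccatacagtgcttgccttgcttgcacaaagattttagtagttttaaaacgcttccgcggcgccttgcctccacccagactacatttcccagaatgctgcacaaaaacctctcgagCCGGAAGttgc
Mrps27: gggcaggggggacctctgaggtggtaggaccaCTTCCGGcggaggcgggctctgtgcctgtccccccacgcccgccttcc

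Each run ends at the base before the RefSeq start. They lie at chr14:54426759-54426908 (plus strand), chr11:5707702-5707851 (minus), chr8:71464776-71464925 (plus), chr19:45006443-45006557 (minus), chr9:98601680-98601829 (minus) and chr13:99344706-99344785 (plus), in the order shown. Mrpl43 had 151 and 132 TPM, Mrps22 49.3 and 57.9, and Mrps27 13.8 and 20.3. The members shown with the ETS letters before their start differed widely in level, but they were chosen with their levels known.

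Over the whole window, CCGGAAG stood in 23 of 68 members (33.8%), against 18.2% of 9081 windows of detected protein-coding genes, 8.86% of all 32851 windows and 41.1% of 56 proteins of the cytosolic ribosome. The NRF1 core GCATGCGC stood in 7 members (10.3%), against 5.56% and 2.71%. They were Mrpl9, Mrpl10, Mrpl17, Mrpl22, Mrpl32, Mrpl39 and Mrps18b. NRF1 is a factor known for nuclear genes of mitochondrial function, like GABP. The YY1 motif AAGATGGCG stood in 8 members (11.8%), against 3.23% and 1.40%, and 2 of the 8 had it before the start. GGGCGG was present in 34 of 68 members, against 68.0% and 35.7%. CCAAT stood in 26 members (38.2%), against 37.0% and 37.4%. Matches were counted on both strands, and in 1 member matches to 2 of the 5 motifs overlapped. Members with the ETS letters had a median of 53.6 TPM and those without 23.8 TPM. For YY1 the medians were 50.03 and 34.9 TPM, for GGGCGG 39.7 and 28.0 TPM, for CCAAT 45.4 and 31.0 TPM, and for NRF1, with the letters lower, 29.3 and 37.1 TPM. A match is a string of letters and not a measured site, and none of these shares was tested.

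Some members lay beside a gene on the opposite strand. A start on the other strand within 1000 bases in divergent orientation between M21 gene ends was found for 20 of 77 members (26.0%), against 15.0% of detected protein-coding genes and 14.3% of proteins of the cytosolic ribosome. In 18 cases the neighbour was protein-coding, and 15 of these 18 members had the higher mean TPM of the pair. Neighbours were kept at any level, and this share was not computed for other genes, so it cannot be read as particular to the members. Mrps34 had 576 and 543 TPM beside Eme2, a DNA repair gene, with 58.7 and 57.9 TPM at a distance of 29 bases. Mrpl57 had 31.6 and 26.5 TPM beside Ska3, a kinetochore gene, with 0.04 and 0.19 TPM. Mrpl49 was the reverse, with 15.8 and 16.9 TPM beside Fau, which encodes a protein of the cytosolic ribosome, with 737 and 780 TPM. Mrps12 lay 172 bases from Sars2, the mitochondrial seryl-tRNA synthetase, with 247 and 215 TPM for Mrps12 and 41.5 and 40.8 TPM for Sars2. Over the 18 pairs Pearson's r of log2 mean levels was 0.27, a description of pairs from the same libraries. A pair of members, Mrps11 and Mrpl46 on chromosome 7, had RefSeq starts at 78783131 (plus strand) and 78783089 (minus strand) and levels of 78.3 and 68.6 TPM against 11.9 and 13.7 TPM, 6.56-fold and 5.02-fold apart. This pair is not among the 20, because the M21 gene bodies overlap. The members lay on 17 chromosomes, 11 of them on chromosome 11, and 0 on X or Y.

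The libraries were then compared gene by gene. An exact two-sided binomial test on rounded counts, with TMM-scaled library sizes and Benjamini-Hochberg adjustment over 15824 genes, compares the reads of these 2 libraries and has no replicate check. At a difference of at least 2-fold and an adjusted p under 0.05, 0 of 77 members were called, against 6.96% of all genes tested (4.41% higher in replicate 1 and 2.55% higher in replicate 2) and 3.30% of the 13025 genes with as many counts as the lowest member. By adjusted p alone 44 members passed, 24 higher in replicate 1 and 20 higher in replicate 2, against 58.2% of all genes tested (29.6% higher in replicate 1 and 28.6% in replicate 2) and 64.2% of those 13025. When an exact test in edgeR assumed a biological coefficient of variation of 0.2, 0 members passed, against 1.53% of all genes tested. The median log2 ratio of replicate 1 over replicate 2 was -0.01 for the members and 0.00 for all genes. Within 1.5-fold lay 75 of 77 members (97.4%), against 87.2% of the genes with as many counts.

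Under TMM scaling the differences that passed ran in both directions. With spike-in scaling, which shifted the median of all genes by -0.43, 70 members passed by adjusted p alone, 1 higher in replicate 1 and 69 higher in replicate 2, against 74.5% of all genes tested. Mrps31, a small-subunit protein added in mitochondria, had the highest log2 ratio of 0.74 (95% interval 0.36 to 1.13) from 146 and 97 counts. Mrpl20, a large-subunit protein of bacterial descent, followed with 0.69 (0.56 to 0.81) from 1240 and 856 counts. These were the 2 members beyond 1.5-fold. With spike-ins Mrpl20 was at 0.25 and Mrps31 at 0.31, and Mrps31 no longer passed (adjusted p = 0.135, exact binomial test). Mrpl2 had a log2 ratio of 0.42, and Mrpl17, Mrpl11 and Mrpl3 0.32 each. Scaled to spike-ins these 4 turned to -0.018, -0.11, -0.11 and -0.12, and of them only Mrpl17 passed by adjusted p. On the other side, Mrps25 had -0.56, Mrpl52 -0.55 (-0.58 to -0.52), Mrps27 -0.51, Mrpl44 -0.49, Mrpl1 -0.46 and Mrps18c -0.45. Of these 6, Mrps18c did not pass by adjusted p. With spike-ins the 6 ran from -0.99 to -0.88, and Mrps18c passed. Levels of the members in the 2 libraries were related with a Pearson's r of 0.99 on log2(TPM + 1), a description across genes.

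**Figure D4:**
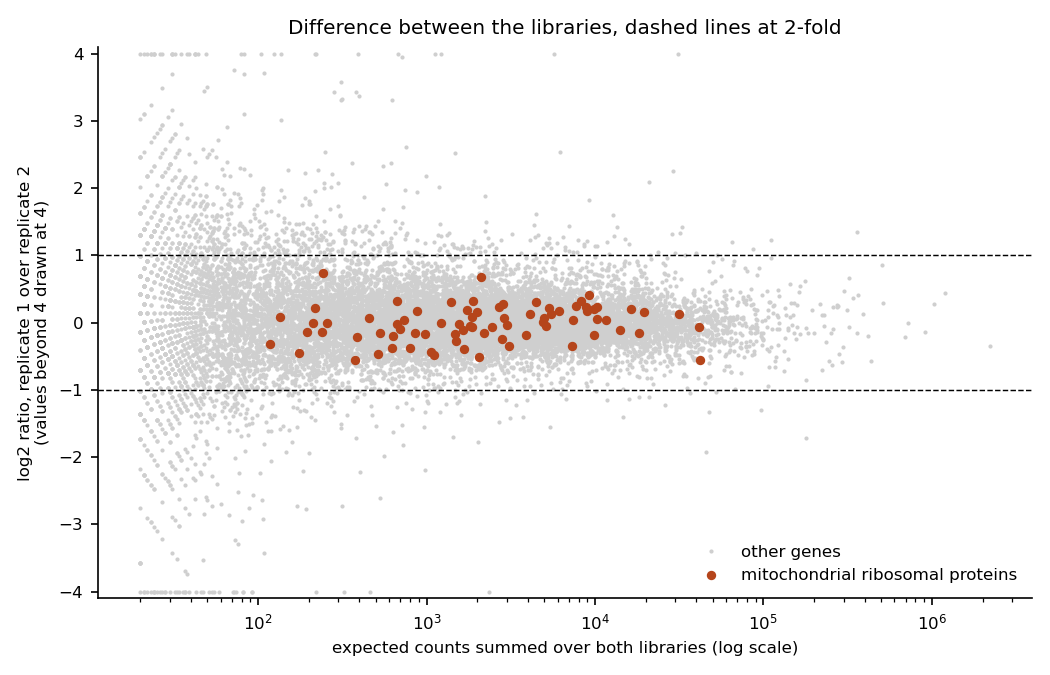
Log2 ratio of replicate 1 over replicate 2 against the expected counts summed over both libraries, with members in colour over all other genes tested in grey and dashed lines at 2-fold. All 77 members lie between the lines, from -0.56 for Mrps25 to 0.74 for Mrps31.

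The other parts of the mitochondrial translation system were described from lists. Of the 5 ribosome subunits with other symbols, Aurkaip1 had 294 TPM in replicate 1 and 273 in replicate 2 and Gadd45gip1, which sits near the exit tunnel and is also known as a regulator of the cell cycle, 197 and 140 TPM. Dap3, a GTP-binding small-subunit protein also named for a role in cell death, had 26.3 and 29.5 TPM, Chchd1 8.38 and 5.71 TPM and Ptcd3 1.30 and 1.08 TPM. These 5 lay within the range of the members. By adjusted p alone 3 of them passed as higher in replicate 1 and 0 as higher in replicate 2, against 29.6% and 28.6% of all genes tested. Of the ribosomal RNAs, mt-Rnr2 had 28.2 and 38.8 TPM and mt-Rnr1 5.42 and 17.2 TPM, from 143 and 490 counts. Mt-Rnr1 was called higher in replicate 2, but poly(A) selection and rRNA depletion act on these RNAs, so their levels do not measure the amount of ribosomes.

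Of 12 translation factors, 11 were detected, from Tufm, the elongation factor that brings aminoacyl-tRNA to the ribosome, with 245 and 282 TPM, to Mtrf1, a release factor, with 0.38 and 0.56 TPM. Of 25 assembly factors 21 were detected. Mterf3 led in TPM with 470 and 185, but from only 639 and 420 counts. In replicate 1 Mrps22 had 49.3 TPM from 1724 counts, so the place of Mterf3 depends on how length enters the value. Tfb1m, which methylates the small ribosomal RNA, was lowest with 0.15 and 0.31 TPM from 6 and 13 counts. All 17 aminoacyl-tRNA synthetases were detected, from Yars2, with 88.45 and 68.99 TPM, to Wars2, with 1.18 and 2.07 TPM. Oxa1l, the insertase that places new chains in the inner membrane, had 318 and 310 TPM, and Taco1, an activator of Cox1 translation, 17.6 and 17.3 TPM. In the transcription list Polrmt, the mitochondrial RNA polymerase, had 88.2 and 86.7 TPM and Tefm, its elongation factor, 1.02 and 1.83 TPM.

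Of 12 translation factors, 4 passed by adjusted p alone as higher in replicate 1 and 4 as higher in replicate 2, beside 29.6% and 28.6% of all genes tested. For 24 assembly factors tested the counts were 8 and 5, for 17 synthetases 4 and 7, for 4 membrane insertion genes 2 and 1, for 6 transcription genes 2 and 1 and for 9 nuclear regulators 2 and 4. Of the genes in these 6 lists, 0 were called at 2-fold, against 6.96% of all genes tested. Median log2 ratios ran from -0.15 for translation factors to 0.08 for membrane insertion, beside 0.00 for all genes tested. Among the nuclear regulators Esrra was highest with 95.6 and 71.5 TPM. The coactivator Ppargc1a, known to raise mitochondrial gene expression, was lowest with 0.47 and 0.57 TPM, and Gabpa, the DNA-binding subunit of GABP, had 2.61 and 2.71 TPM.

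The mitochondrially encoded messages, the only templates of this ribosome, were far more abundant than the mRNAs of the ribosome. They had a median of 714 TPM in replicate 1 and 766 in replicate 2, with mt-Co1 highest at 7235 and 7490 TPM. Together they held 1.96% and 1.66% of all TPM, with sums of 19364 and 16478 TPM. The sum fell by less than mt-Nd4l alone, so the lower share of replicate 2 rested on this gene. Of 12 tested, mt-Nd4l with 4710 and 1053 TPM and mt-Co2 with 260 and 121 TPM were called higher in replicate 1. In the other direction 0 were called. Of all genes tested, 4.41% were called higher in replicate 1 and 2.55% higher in replicate 2. Both libraries list mt-Nd3 at 0. Without a minimum fold, 4 of the 12 passed as higher in replicate 1 and 7 as higher in replicate 2. The shares over all genes tested were 29.6% and 28.6%.

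**Figure D5:**
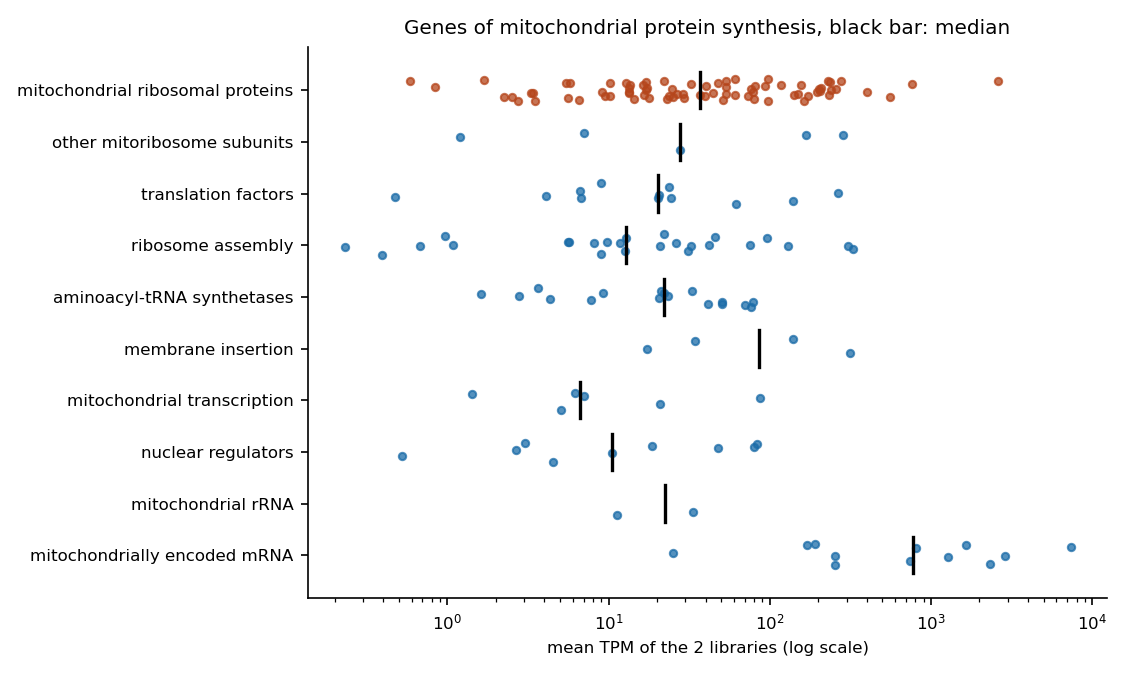
Mean TPM of the libraries on a log scale for the members and for genes of 9 other lists of mitochondrial protein synthesis, 1 point per gene, with the median as a black bar; mt-Nd3, listed at 0, is left out of the points and of the bar. The members span the range of most other nuclear lists, and the mitochondrially encoded mRNAs lie mostly to the right of them.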

How the data were processed

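Expected counts, posterior mean counts, TPM and FPKM were used as deposited by the authors, 1 table of genes and 1 of transcripts per library. Per the readme files and the file headers they come from alignments to the mm10 transcriptome with annotation M4. No source used here names the aligner or quantifier. The authors' TPM is scaled by effective length over all rows and the deposited FPKM by length and fragments. The authors' TPM interval bounds, a signal on the TPM scale, were not used for results. Deposited counts are fractional where reads are shared. They were rounded for tests.

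Identifiers were matched without version to GENCODE M21 on GRCm38 (42462 of 43346). The 96 spike-ins were left out of shares and library sizes. TMM factors came from edgeR 4.0.16 in R 4.3.3, DESeq2 1.42.0 gave alternative size factors, and scipy 1.17.1 gave binomial tests for the 15824 genes whose counts summed to 20 or more. Log2 ratios used a prior count of 0.5. Intervals are 95% Clopper-Pearson limits and cover counting error only. The test was checked on simulated counts that held counting error alone, so the check does not cover further spread between libraries. Levels carry no test, since there is 1 group.

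The members, lists and the rule for named genes were chosen with earlier results of these data known. The rule took the 8 highest and 8 lowest members, the 6 highest and 6 lowest ratios, members below 1 TPM, paralogues, shared reads, differing leading transcripts, and the ends of each list. A share of fractional counts per gene could not be computed, so members whose counts were not whole were named. Other members were named for a motif, neighbour or transcript class after their values were seen. Alternatives tried were other scalings, filters, folds, count and TPM estimates, motif windows and neighbour distances. The mm9 tables were not analysed here.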

Additional observations from a re-analysis of the deposited data

How the results depend on the processing

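The number of members called at 2-fold stayed at 0 under DESeq2 size factors, spike-in scaling, no filter on low counts, posterior mean counts and an assumed coefficient of variation of 0.2, and was 2 at 1.5-fold, where 15.8% of all genes passed. By adjusted p alone 44 members became 70 with spike-in scaling, 1 higher in replicate 1 and 69 in replicate 2 (74.5% of all genes), and 0 with the assumed coefficient of variation (1.53% of all genes). The median log2 ratio moved to -0.44 with spike-ins, beside -0.43 for all genes tested. With spike-ins Mrps34 turned to -0.31, Mrpl2 to -0.018, Mrpl34 to -0.27 and Mrpl17 to -0.11. Likewise Mrpl14 turned to -0.19, Mrpl10 to -0.27, Mrpl3 to -0.12 and Mrpl11 to -0.11. Of these, Mrpl2, Mrpl3 and Mrpl11 no longer passed by adjusted p. The cause of the shift with spike-ins was not tested. The members' share was 0.397% of expected counts in place of 0.935% of TPM, as counts are not divided by length. The YY1 letters stood in 2 members before the start, a shorter window, in place of 8. With 1 library alone the share ranged from 0.901% to 0.969% and the median level from 35.1 to 38.8 TPM. After the data were seen, the relation of level to G and C was recomputed over 53 members of equal transcript length (r = 0.73 in place of 0.64), and counts per full length were added and gave 2.32-fold for Mrpl52 over Mrps24 in place of 3.42-fold, and the sum of Mrpl23 with its pseudogene was 73.2 TPM. No paired analysis was possible because there is 1 group and nothing to pair across groups. The lowest counts were those of Mrpl50, Mrpl47 and Mrps18c.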
